A study of Mus musculus with 2 samples.

Results

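The positions described here are 6369 recurrent non-CpG sites of the mouse genome, out of 1370254 positions listed for 2 methylRAD libraries of F9 cells. They were chosen by 3 measured properties. The motif was CCAGG or CCTGG on chromosomes 1 to 19, the count was 20 or more in both libraries, and the nearest CCGG position listed in either library lay more than 100 bp and at most 10000 bp away. CCAGG and CCTGG positions within these distances are called distant below, and 96911 distant positions were listed in both libraries. The comparison set was the 28100 distant positions with a count of 5 to 9 in both. Counts and distances are thus given as descriptions, without a test.

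F9 is an established line of mouse embryonal carcinoma, the malignant counterpart of early embryonic stem cells. The undifferentiated library came from F9 cells, which were kept on gelatin. The differentiated library came from F9 cells at day 4, and the labels describe differentiation as plating in low-attachment dishes with 1 µM retinoic acid, although the sample descriptions of both libraries also carry the word untreated. Each state is 1 library of 1 line, so differences between states have no replicate check and no p-value is given. All sites come from the same 2 libraries and are not replicates of a condition. Below, a pair of counts gives the undifferentiated value first and the differentiated value after it, and a site is called higher or lower by its counts in the differentiated relative to the undifferentiated library, each divided by the CCGG total.

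Most DNA methylation in mammals sits on the cytosine of a CpG pair. Methylation outside CpG is laid down mainly by the de novo enzymes Dnmt3a and Dnmt3b, is best known from embryonic stem cells, oocytes and neurons, and is not copied by the maintenance machinery that restores CpG methylation after replication. FspEI, the enzyme used here, recognises a cytosine followed by a methylated cytosine and cuts a fixed distance downstream. It reads a methylated CpG preceded by a cytosine as readily as the inner cytosine of CCAGG or CCTGG, motifs that read as one another on the opposite strand. The motif in the tables names the site to which a fragment was assigned.

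A reference genome was not used here, but the RefSeq promoter windows of GRCm38.p6, which run from 250 bases before to 50 bases after a gene start, gave the letters around those positions that fall inside them. At 594 of the 595 overlaps examined between a distant position and a promoter window, the listed motif stood exactly at the listed coordinate, read as the first base of the motif on the + strand. Of the recurrent sites, 40 lay in such windows. The following 4 are those with the highest summed count that lie wholly before a gene start with 16 bases on each side. They are shown because of what flanks the motif, a choice made after seeing the data. They do not stand for all sites, since 6 of 37 recurrent sites had no CCG or CGG in these flanks. Capitals mark the listed motif and every CCG or CGG outside it, and all are written 5′ to 3′ on the + strand.
Ifnl3 (chr7:28522707-28522743): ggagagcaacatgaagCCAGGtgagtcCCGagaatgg
Gm43915 (chr6:120958597-120958633): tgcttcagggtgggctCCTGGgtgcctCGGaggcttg
Gm46599 (chr17:5928250-5928286): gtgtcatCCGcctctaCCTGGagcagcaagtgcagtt
Fam78a (chr2:32064919-32064955): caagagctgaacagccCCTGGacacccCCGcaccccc

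Each of the 4 sequences holds a single CpG, and in each that CpG is part of a CCG or CGG separated from the listed motif by 6 bases. CCG, and CGG on the other strand, is the arrangement in which FspEI can read a methylated CpG. The site before Ifnl3, a gene for an interferon of the lambda type, had 128 and 92 counts. Gm43915 had 77 and 86 counts, Gm46599 had 58 and 61, and Fam78a had 38 and 56. Thus 1 of the 4 was lower and 3 were higher after differentiation, all by less than 2-fold. Relative to the CCAGG and CCTGG totals only Fam78a was higher, and with the divisors behind the deposited RPM values 2 of the 4 were.

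The same feature was counted at every site with 16 bases of promoter sequence on each side, 37 of the 40. A CCG or CGG, searched as such on the + strand and so covering both strands, lay within those flanks at 31 of 37 recurrent sites, 83.8% (95% exact binomial interval 68.0% to 93.8%). The share was 60.0% (51.8% to 67.8%) for 155 comparison positions, 69.9% (64.5% to 74.9%) for 319 distant positions of the remaining counts, and 42.1% (41.6% to 42.7%) for all 35143 CCAGG and CCTGG motifs in the promoter windows, listed or not. The share was lowest over all motifs, and the interval of the recurrent sites overlaps that of the distant positions of remaining counts. A plain CG was present at 86.5% of the recurrent sites (71.2% to 95.5%) and 72.9% of the comparison positions (65.2% to 79.7%). It was present at 78.1% of the distant positions of remaining counts (73.1% to 82.5%) and 56.4% of all motifs. Intervals cover the counting of positions only, and neighbouring positions are not independent.

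Where 32 bases were available on each side, the inner and outer flanks of the same sequence could be set side by side. A CG lay within the inner 16 bases of either side at 28 of 33 recurrent sites, 84.8% (68.1% to 94.9%), and within the outer 16 bases at 16 of 33, 48.5% (30.8% to 66.5%). At 137 comparison positions the shares were 72.3% (64.0% to 79.6%) and 65.0% (56.4% to 72.9%). At the 264 distant positions of remaining counts they were 78.0% (72.5% to 82.9%) and 52.3% (46.1% to 58.4%), so the inner excess was not particular to the recurrent sites. At the comparison positions the inner and outer intervals overlapped. The nearest CCG or CGG was 0 to 4 bases from the motif at 16 of the 37 sites, 5 to 9 bases at 12 and 10 to 13 bases at 3, which is 43.2%, 32.4% and 8.11%. Over all 511 distant positions with such flanks the shares were 34.6%, 27.2% and 6.07%, each inside the interval of the recurrent sites. Median GC content of the 300-base windows was 55.8% for recurrent sites and 55.0% for comparison positions, so it differed little. The files do not tell which cytosine released a fragment, and whether the CpG at CCG gave these reads was not tested.

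No CCGG lay in the 37-base windows of the recurrent sites or of the comparison positions, against 11.6% of all motifs, as the distance rule demands for listed CCGG. Within 100 bases, as far as the windows reached, 7 of the 40 recurrent sites had a CCGG in the sequence although none was listed there. That is 17.5%, near the 14.3% of the comparison positions and the 12.3% of all distant positions. A second CCAGG or CCTGG stood in the 37 bases at 1 of 37 recurrent sites, 2.70% (0.068% to 14.2%), at 16.1% of the comparison positions (10.7% to 22.9%) and at 13.4% of all motifs.

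Counts at the recurrent sites were moderate in both libraries. The undifferentiated counts had a median of 27 (interquartile range 23 to 34, highest 298) and the differentiated counts a median of 33 (interquartile range 25 to 45, highest 951). The summed count was under 100 at 90.4% of the sites, and only 8 sites had more than 100 counts in each library. The libraries held 20550450 and 21291239 counts, of which 16687588 and 15705436 were CCGG counts. Together the recurrent sites held 194707 counts, 11.7% of all distant counts in the undifferentiated library, and 243961 counts, 8.33%, in the differentiated library. Sites were listed only from 5 counts upwards, so an unlisted site had 0 to 4 counts unless another filter removed it.

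**Figure D1:**
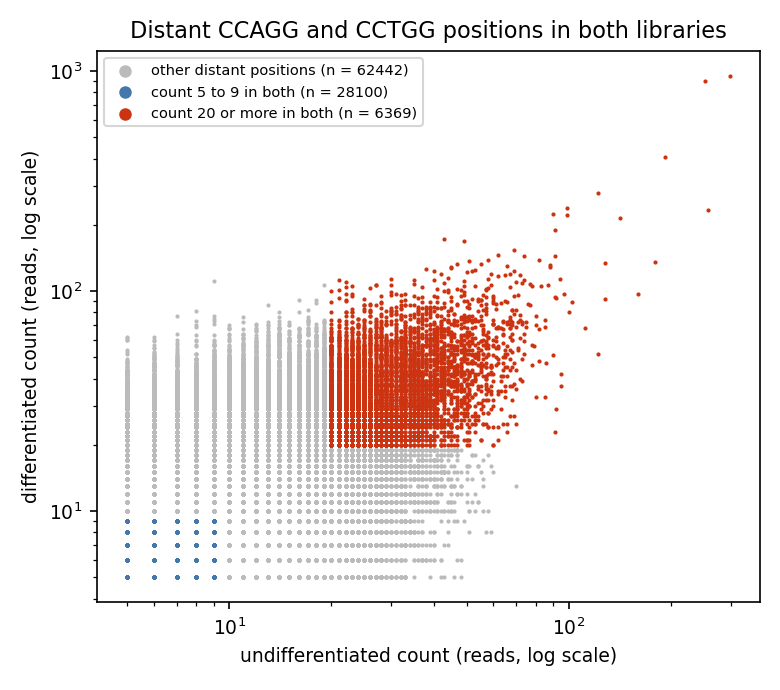
Counts of the 96911 distant CCAGG and CCTGG positions in the undifferentiated (x axis, reads, log scale) and differentiated library (y axis, reads, log scale), 1 point per position. Red points are the 6369 recurrent sites, which reach 298 and 951 counts, blue points the comparison positions with 5 to 9 counts in both, and grey points the other positions.

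Recurrence was uneven between the libraries, as the same 6369 sites were set against unequal numbers of positions. Listing itself was uneven in the same direction. The undifferentiated library listed 176060 distant positions and the differentiated library 289363, with 96911 in both. Of 11353 distant positions with 20 or more counts in the undifferentiated library, 56.1% also had 20 or more in the differentiated library, 37.6% had 5 to 19 and 6.27% were unlisted there. The differentiated library had 25375 such positions, and 25.1% of them reached 20 counts in the undifferentiated library, while 59.3% had 5 to 19 and 15.6% were unlisted. At the limit itself, 804 sites had a lower count of exactly 20, and 1003 positions just outside had a lower count of exactly 19. Their median counts were 20 and 24 inside and 19 and 24 outside in the undifferentiated and differentiated library.

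The motif was balanced over all autosomes together. CCAGG and CCTGG read as one another on the opposite strand, so a share near 50% says nothing about methylation. CCAGG made up 3149 and CCTGG 3220 of the recurrent sites, a CCAGG share of 49.4% (48.2% to 50.7%). In the comparison set the share was 49.8% (49.2% to 50.4%), and over all distant positions 50.02% (49.7% to 50.3%), with all intervals including 50%. Counts were split alike, with 96208 CCAGG and 98499 CCTGG counts before and 120519 and 123442 after differentiation. By chromosome the CCAGG share lay between 42.4% on chromosome 11 and 56.5% on chromosome 10. No interval was computed per chromosome, so balance on single chromosomes was not tested. Alignments were a full match in both libraries at 99.5% of the recurrent sites (99.3% to 99.6%) and 99.2% of the comparison positions (99.1% to 99.3%).

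Recurrent sites were spread over all 19 autosomes, but not evenly. They were 10.1% of the distant positions of chromosome 12 (9.40% to 10.9%) and 9.49% of those of chromosome 8 (8.88% to 10.1%). On the other 17 autosomes the share ran from 4.77% on chromosome 10 to 7.80% on chromosome 6. Chromosomes 8 and 12 together held 22.8% of the recurrent sites and 13.5% of the comparison positions. The same 2 chromosomes had the highest CCGG counts, a measure the choice of sites did not use. The median count of CCGG positions listed in both libraries was 27 and 25 on chromosome 8 and 25 and 24 on chromosome 12. On the other autosomes it was 20 to 22 and 19 to 21.

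**Figure D2:**
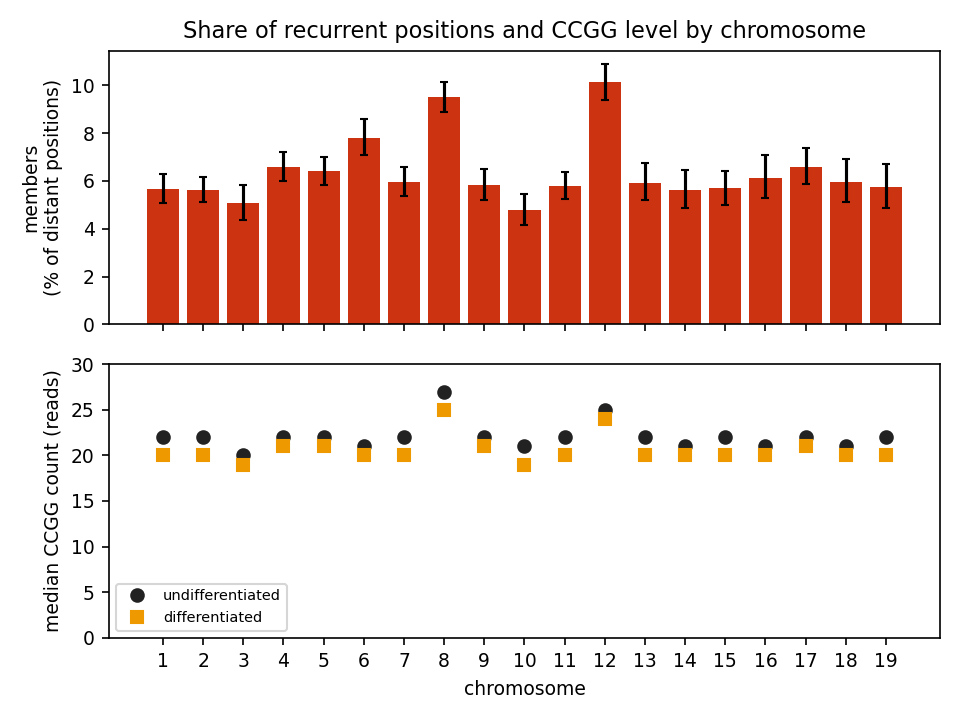
Upper panel: recurrent sites as a percentage of distant positions on each autosome, with 95% exact binomial intervals. Lower panel: median CCGG count (reads) on the same chromosome in both libraries. Chromosomes 8 and 12 stand highest in both panels, at 9.49% and 10.1% above and at undifferentiated medians of 27 and 25 below.

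The uneven spread resolved into domains of several 10 Mb. Among the 249 windows of 10 Mb with at least 50 distant and 50 CCGG positions, the one with the most recurrent sites was on chromosome 12 from 100000001 to 110000000. It had 254 recurrent sites, 13.3% of its distant positions, and a median CCGG count of 38 and 35. The next window on chromosome 12, from 110000001, had 160 sites (11.9%) and CCGG medians of 33 and 32. On chromosome 8 the window from 120000001 to 130000000 had 190 sites (10.3%) and CCGG medians of 31 and 29. Chromosome 6 from 110000001 to 120000000, with 95 sites (10.3%) and CCGG medians of 30 and 27, showed that the pattern was not restricted to chromosomes 8 and 12. These 4 windows thus paired a high share of recurrent sites with a high CCGG level. Some windows had a similar share at a lower level. Chromosome 11 from 1 to 10000000 had 53 sites (10.5%) and CCGG medians of 24 and 22. Chromosome 14 from 90000001 to 100000000 had 15 sites (9.55%) and CCGG medians of 22 and 21.

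Across all 249 windows the percentage of recurrent sites and the undifferentiated CCGG median had a Pearson's r of 0.68 and a Spearman's rho of 0.43. Without chromosomes 8 and 12 the values were 0.54 and 0.33 over 224 windows. For the percentage of comparison positions, cut by count from the same distant positions and so not a separate check, r was -0.50 over all windows. These are descriptions across windows that share both libraries and their depth, and windows are not replicates. In the 10 windows with an undifferentiated CCGG median of 30 or more, on chromosomes 4, 6, 8 and 12, recurrent sites were 8.33% to 13.3% of distant positions. In the 40 windows with a median under 20 they were 0% to 7.95%. The part of the regional CCGG level, or of what sets it, in the share of recurrent sites was not tested.

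**Figure D3:**
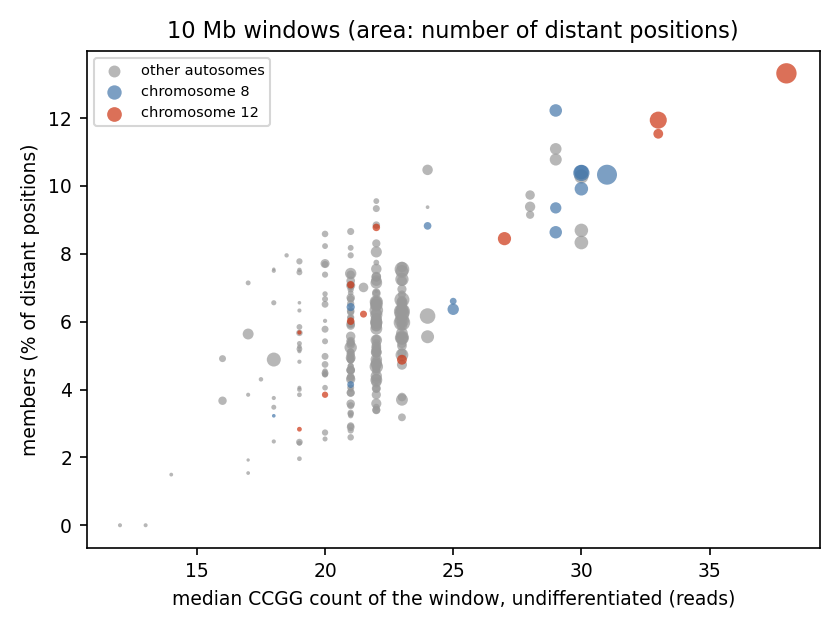
Each point is a 10 Mb window of an autosome. The x axis is the median CCGG count (reads) of the undifferentiated library, the y axis recurrent sites as a percentage of distant positions, and the area of a point follows its number of distant positions. Windows of chromosome 12 (red) and chromosome 8 (blue) reach the upper right, up to 13.3% at a CCGG median of 38.

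The relation also held at a finer scale. For each distant position the median count of the CCGG positions listed in both libraries within 100 kb on either side was taken. Where this local undifferentiated median was above 15 and at most 20, 5.16% of distant positions were recurrent sites (4.84% to 5.50%). The share was 5.98% above 20 and up to 25, 7.13% up to 30, 10.3% up to 35 and 12.3% (11.4% to 13.3%) above 35. Comparison positions went the other way, from 30.3% above 15 and up to 20 to 22.8% above 35. Both sets are cut by count from the same distant positions, so the opposite trends are not separate observations. Without chromosomes 8 and 12 the share of recurrent sites was 5.19% above 15 and up to 20 (4.86% to 5.53%), 5.95% up to 25, 6.39% up to 30, 9.33% up to 35 and 12.95% above 35 (10.9% to 15.3%). The last class was small, with 122 recurrent sites among 942 distant positions. The gene Sfi1, described below, held 26 recurrent sites among 72 distant positions, and its named sites had local medians of 47 or 54. No share without Sfi1 was computed for this class. The median site was ordinary, with a local CCGG median of 24 and 22.5 counts for recurrent sites and 23 and 21.5 for comparison positions. Without these 2 chromosomes the undifferentiated value was 23 for both sets.

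At 1 Mb resolution, 1522 of 2381 windows with a distant position held at least 1 recurrent site, and 25 windows held 20 or more, 22 of them on chromosomes 8 and 12. The fullest window was chromosome 12 from 112000001 to 113000000, with 72 recurrent sites among 513 distant positions. Chromosome 8 from 122000001 to 123000000 held 48 of 374, and chromosome 12 from 108000001 to 109000000 held 42 of 320. Their sites summed to 2394 and 2981, 1622 and 2133, and 1590 and 2165 counts.

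Recurrent sites lay somewhat nearer to a listed CCGG than comparison positions within the permitted range, with a median distance of 556 bp (interquartile range 259 to 1159) against 602 bp (274 to 1319). Without chromosomes 8 and 12 the medians were 584 and 608 bp. Recurrent sites were 6.91% of distant positions more than 100 and up to 300 bp from a CCGG position (6.61% to 7.22%) and 5.48% of those more than 3000 bp away (4.97% to 6.03%).

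Gene bodies of the RefSeq annotation of GRCm38.p6 held 70.6% of the recurrent sites (69.5% to 71.8%) and 67.2% of the comparison positions (66.6% to 67.7%). Protein-coding genes held 63.1% (61.9% to 64.3%) and 58.9% (58.3% to 59.5%). Without chromosomes 8 and 12 the shares in protein-coding genes were 63.6% and 59.1%. Start sites were not favoured, since 3.25% of the recurrent sites (2.83% to 3.72%) and 3.48% of the comparison positions (3.27% to 3.70%) lay within 1 kb of one. Exons, introns and UTRs were not told apart, because the gene table gives only the ends of each gene. Altogether 3344 genes held at least 1 recurrent site, 2573 of them exactly 1 and 13 of them 10 or more.

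Sfi1, which codes for a centrin-binding protein of the centrosome, had the most, 26 of its 72 distant positions, within 71498 bp of chromosome 11 from 3131850 to 3203347. Its sites had 21 to 258 undifferentiated and 28 to 408 differentiated counts, and 19 of the 26 were higher, beside 74.2% of all recurrent sites. Relative to the CCAGG and CCTGG totals 16 of the 26 were higher, beside 31.95% of all recurrent sites. CCGG positions inside Sfi1 were also far above the chromosome's level, with medians of 61.5 and 128.5 counts over 42 positions, against 22 and 20 on chromosome 11. Their rise between the libraries was in the same direction as that of the recurrent sites, whose median log2 ratio was 0.86. The part of this local CCGG level in the recurrent sites of Sfi1 was not tested.

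The other 9 of the 10 genes with the most recurrent sites all lay on chromosomes 4, 6, 8 or 12. Their counts stand beside an overall share of 6.57% of distant positions and 9.49% on chromosome 8, and beside 74.2% of all recurrent sites that were higher. Gse1, which codes for a partner of chromatin-modifying complexes, held 19 of 158 distant positions (12.03%), 10 of them higher, at 21 to 73 undifferentiated and 20 to 55 differentiated counts. Zfhx3, a zinc finger and homeobox transcription factor gene, held 15 of 93 (16.1%), 14 of them higher. Cdh13, the gene of the membrane-anchored T-cadherin, held 13 of 129 (10.1%), 12 of them higher, and Wwox, which codes for an oxidoreductase with WW domains, held 12 of 134 (8.96%), 9 of them higher. The shares of Cdh13 and Wwox were thus near that of their chromosome. Zfp423, a zinc finger factor gene of neural and fat cell development, held 12 of 83, 7 of them higher, and Zfp469 held 11 of 85, 9 of them higher. Relative to the CCAGG and CCTGG totals, where 31.95% of all recurrent sites were higher, the counts of higher sites were 4 in Gse1, 10 in Zfhx3, 7 in Cdh13, 4 in Wwox, 5 in Zfp423 and 4 in Zfp469. All 6 of these genes lie on chromosome 8 and had CCGG medians of 27 to 30 in the undifferentiated library.

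Bcl11b, the transcription factor gene of T-cell commitment, held 12 of 56 distant positions on chromosome 12 within 93743 bp, which is 12.8 sites per 100 kb. Among the 10 genes only Sfi1, at 36.4, had more, and outside them Cep170b had 35.9 and Zfpm1 14.3. Zfhx3 had 2.20 and Cdh13 1.10 per 100 kb, but these genes span 682326 and 1184913 bp. In Bcl11b 6 of the 12 were higher, and its CCGG medians were 34.5 and 37 counts. Camta1, a calmodulin-binding transcription activator gene on chromosome 4, held 13 of 119, 9 of them higher, and Mical3, which codes for an actin-oxidising monooxygenase, held 11 of 61 on chromosome 6, 9 of them higher. With the CCAGG and CCTGG totals 5 sites of Bcl11b, 4 of Camta1 and 3 of Mical3 were higher.

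Among the 10 recurrent sites with the highest summed count, 5 were in Sfi1. The highest was a CCAGG at position 58225254 of chromosome 10, inside the gene model LOC100504180, with 298 (95% exact Poisson interval 265 to 334) and 951 counts (892 to 1013). A CCTGG at position 181917469 of chromosome 2, inside the long non-coding RNA gene Gm40034, had 252 (222 to 285) and 898 (840 to 959) counts. Both were thus higher, by 1.76 and 1.92 on the log2 scale, while the CCGG medians around them, 23 and 14 and 21 and 19 counts, were not. Next came 2 sites in Sfi1, at position 3132013 with 192 and 408 counts and at position 3137479 with 258 and 234 counts, the latter also inside the gene model Gm33862.

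Positions 3134406, 3132275 and 3134427, also in Sfi1, had 122 and 280, 99 and 239, and 90 and 224 counts. Position 3201143 of chromosome 3, which lies 51578 bp from the nearest gene model, had 142 and 214 counts. Position 116552183 of chromosome 6, inside the pseudogene Eif4a3l2, had 99 and 222 counts. Position 3009191 of chromosome 18, 17710 bp from a pseudogene of a vomeronasal receptor, had 180 and 135 counts. The sites in Sfi1 and those on chromosomes 3 and 18 thus all lay between positions 3009191 and 3201143 of their chromosomes. The part of this shared location in their counts was not tested. Of the 10 highest sites 8 were higher and 2 were lower, with each of the 4 scalings used here (the totals of CCGG, of CCAGG and CCTGG, of all counts, and the RPM divisors).

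Clustering was looked at in a single pool, all distant positions listed in both libraries, because sets of unequal size differ in their chance of neighbours. Another position of the pool lay within 1 kb of 35.5% of the recurrent sites (34.3% to 36.7%) and 33.0% of the comparison positions (32.5% to 33.6%). Without chromosomes 8 and 12 the shares were 31.8% (30.5% to 33.2%) and 31.5% (30.9% to 32.05%), which overlap. Within 10 kb, on all 19 autosomes, they were 80.7% (79.7% to 81.6%) and 75.2% (74.7% to 75.7%), and without chromosomes 8 and 12 77.6% (76.4% to 78.8%) and 73.9% (73.3% to 74.4%). At 16 bp the order was the opposite, 6.47% (5.88% to 7.10%) against 8.90% (8.57% to 9.24%) on all autosomes and 6.23% against 8.78% without those 2.

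**Figure D4:**
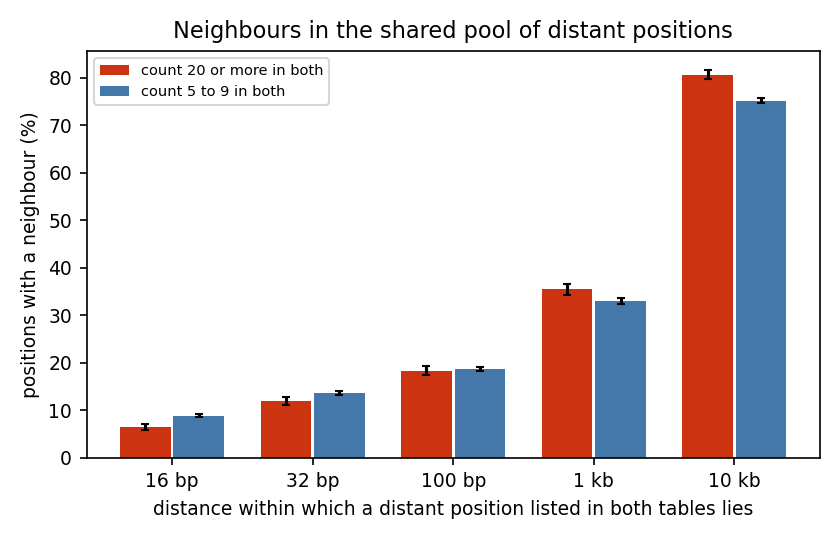
Percentage of positions that have another distant position listed in both libraries within the distance on the x axis, with 95% exact binomial intervals. Recurrent sites (red) stand below comparison positions (blue) at 16 bp and 32 bp and above them at 1 kb and 10 kb.

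Joined where they lay at most 1 kb apart, the recurrent sites formed 6022 groups, of which 5721 were single sites, 276 pairs and 25 groups of 3 or more. Single sites were 89.8% of the recurrent sites and 82.3% of the more numerous comparison positions joined in the same way, and sets of unequal size cannot be compared by these shares. A group of 7 sites ran from 3131069 to 3132275 of chromosome 11 over the edge of Sfi1 and the pseudogene Pisd-ps1. Its sites had 58, 192, 31, 31, 27, 49 and 99 undifferentiated counts, and 138, 408, 85, 97, 86, 169 and 239 differentiated counts in the same order. All 7 were thus higher, with each of the 4 scalings. A second group of 7 in Cep170b, on chromosome 12 from 112735506 to 112739616, had 26, 33, 33, 30, 22, 40 and 41 undifferentiated and 20, 40, 66, 59, 21, 26 and 24 differentiated counts, so its sites did not move together. A group of 6 in Sfi1, from 3134371 to 3135472, summed to 354 and 694 counts. Another group of 6, named after its values were seen because it ties in number, was in Eml1 on chromosome 12 from 108369443 to 108371532 and summed to 246 and 401 counts.

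Adjacent sites had like ratios only over the shortest spacings. The 154 adjacent pairs of recurrent sites with a spacing of 4 to 16 bp differed by a median of 0.04 in log2 ratio, and the 81 pairs with a wider spacing of at most 32 bp by 0.08. The median difference was 0.51 for the 32 pairs spaced wider than 32 bp but within 100 bp, and 0.64 for the 80 pairs beyond 100 bp but within 1000 bp. Pearson's r across pairs, a description, was 0.96, 0.76, 0.20 and -0.18 in these 4 classes. Sites at most 32 bp apart could be covered by the same fragment, which was not tested, and are not counted on as separate measurements. Keeping 1 site of each such run left 6134 sites.

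The library ratio was the differentiated count per 1000000 CCGG counts divided by the undifferentiated one. Because the rule bounds both counts from below, and those of the comparison set from both sides, a difference in ratio between the sets cannot be interpreted, and the values are a description. The median log2 ratio was 0.33 at the recurrent sites (interquartile range -0.02 to 0.73), 0.09 in the comparison set and 0.35 over all distant positions. With 5 to 9 counts on both sides a comparison position cannot exceed 0.94. The log2 ratio was above 0 at 4726 recurrent sites, 74.2%, at 65.6% of the comparison positions and at 68.2% of all distant positions. It was 1 or more, a 2-fold difference, at 854 sites (13.4%) and -1 or less at 43 sites (0.675%). Among all 191066 CCAGG and CCTGG positions listed in both libraries, 21.5% passed the same limit upwards and 6.88% downwards, and among the distant positions 24.1% and 5.47%. Since the choice of sites uses these counts, nothing is read from the lower shares of the recurrent sites. The sign depends on the scaling: relative to the CCAGG and CCTGG totals the median was -0.29 at the recurrent sites and -0.27 over all distant positions. With those totals the log2 ratio was above 0 at 31.95% of the recurrent sites and 38.8% of all distant positions, so the order of the 2 sets turned. The 2-fold limit was then passed upwards by 1.60% and downwards by 8.23% of the recurrent sites, and by 8.39% and 18.6% of the distant positions. With the divisors behind the deposited RPM values the log2 ratio was above 0 at 56.5% and 57.4%, and the limit was passed by 6.75% and 1.92% of the recurrent sites and by 16.9% and 8.66% of the distant positions. With the totals of all counts the corresponding values were 64.4% and 59.3%, 9.01% and 1.33%, and 19.9% and 7.33%.

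**Figure D5:**
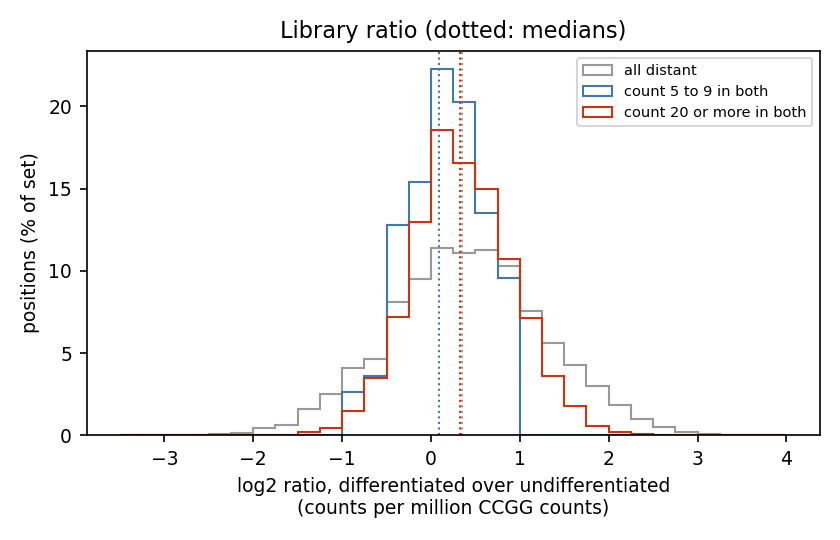
Distribution of the log2 ratio of differentiated to undifferentiated counts per 1000000 CCGG counts (x axis), as a percentage of each set (y axis), with dotted lines at the medians of 0.33 for recurrent sites (red), 0.09 for comparison positions (blue) and 0.35 for all distant positions (grey). The blue outline ends below 1 because its counts are bounded on both sides.

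By distance from a CCGG position the median was 0.30 within 300 bp, 0.35 from there to 1000 bp, 0.32 to 3000 bp and 0.35 beyond, with no steady trend. CCAGG and CCTGG sites had the same median of 0.33. By chromosome the median ran from 0.25 on chromosome 17 to 0.50 on chromosome 19.

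The highest ratio was at position 19997040 of chromosome 8, 16801 bp from the long non-coding RNA gene Gm36166, with 21 and 112 counts and a log2 ratio of 2.50 (95% exact interval from the counts 1.82 to 3.25). Position 3140017 in Sfi1 had 22 and 110 counts (2.41, 1.74 to 3.14), and position 150695505 of chromosome 1 had 20 and 100 counts (2.41, 1.71 to 3.18). The last lies in Hmcn1, a gene for a large extracellular matrix protein. The lowest ratio was at position 52369466 of chromosome 3, with 91 and 23 counts (-1.90, -2.62 to -1.22). It lies 19357 bp from Foxo1, which codes for a forkhead transcription factor under insulin control. Position 86690777 of chromosome 12 in Vash1, the gene of a tubulin carboxypeptidase, had 92 and 29 counts (-1.58, -2.23 to -0.96). Position 119492876 of chromosome 8 in Slc38a8, an amino acid transporter gene, had 60 and 20 counts (-1.50, -2.31 to -0.75). Those intervals cover counting error only, because each state is 1 library. Whether PCR copies of a molecule were counted as separate reads is not given in the sources used here.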

How the data were processed

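Per the labels' protocols, FspEI digests of F9 genomic DNA were run on a gel, and the short released fragments were purified and ligated to adaptors. GRCm38, FastQC 0.11.3 and Bowtie2 2.3.3 are named per the submitters' processing notes; other filters are not given in the sources used here. The deposited counts are whole numbers of reads per site, with a lowest value of 5. The deposited RPM column is used as a score here, its sum being above 1000000, and equals the count times 1000000 divided by 2221852 (undifferentiated) or 2446243 (differentiated). Sites, distances, neighbours and ratios were computed in Python 3.11.15 (pandas 2.3.3, scipy 1.17.1, numpy 2.4.6) and the code was tested on simulated tables. At 5 positions CCAGG in one library was CCTGG in the other, and these were left out. Depth is the sum of listed counts. Genes and promoter letters came from RefSeq tables of GRCm38.p6; sequence features planned for all sites were read only inside promoter windows, chromosome 18 left out, and 1 sequence is not reported here. Shares have 95% exact (Clopper-Pearson) intervals. Named positions are the 10 with the highest summed count, the 3 with the highest and lowest ratio, the 3 fullest 1 Mb windows and the 3 groups with the most sites (ties by summed count); named genes are the 10 with the most sites. Sequences, 10 Mb windows, local CCGG levels and CpG contexts were chosen after seeing the data. The sites, comparison and lists were chosen with earlier results of these data known. Alternatives concerned count and distance limits, alignment type, 1 site per run of 32 bp, the highest sites, scaling, neighbour distance, Sfi1, and chromosomes 8 and 12.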

Additional observations from a re-analysis of the deposited data

Results flagged for a closer look

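Chromosome X lies outside the positions described above, and a signal was present there. On it, 47 positions met the same count and distance limits, 3.94% of its 1192 distant positions listed in both libraries (95% exact binomial interval 2.91% to 5.21%). Their median count was 27 before and 33 after differentiation. The median CCGG count of chromosome X was 16 and 15, below that of every autosome.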

How the results depend on the processing

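The alternatives without Sfi1, without chromosomes 8 and 12 and with a summed count of at least 40 were chosen after seeing the data, and the cause of any change was not tested. The number of sites, 6369, was 31486 with a minimum of 10 counts, 627 with 40, 1887 at more than 1000 bp from CCGG and 14033 with a summed count of at least 40. The CCAGG share stayed inside its interval under all 9 alternatives run for it, which says little because the 2 motifs read as one another on opposite strands. The share with a neighbour within 1 kb, 35.5%, was 34.2% with a minimum of 10, 43.2% with 40, 23.6% at more than 1000 bp from CCGG, 27.6% with 1 site per run of 32 bp, 31.8% without chromosomes 8 and 12, 18.3% for neighbours within 100 bp and 80.7% within 10 kb. The median log2 ratio, 0.33, was 0.37 with a minimum of 10, 0.28 with 40, 0.73 with a summed count of at least 40, 0.19 with the totals of all counts, 0.10 with the RPM divisors and reversed to -0.29 with the CCAGG and CCTGG totals. The share at least 2-fold higher, 13.4%, was 20.3%, 8.93%, 38.9%, 9.01%, 6.75% and 1.60% in the same order. No paired analysis was possible because each state has 1 library.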
